A study of Mus musculus with 48 samples.

Results

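Of the 53345 genes in the deposited matrix, 10 are described, each of which encodes a chain of a receptor for a cytokine other than IL-2. They were taken by symbol: Il4ra, Il7r, Il15ra and Il21r, Il6ra, Il6st and Il27ra, Il10ra, and Il18r1 and Il1r2. The question was how these genes are expressed in regulatory T cells (Tregs) and conventional T cells (Tcons) of the spleen, and how they move when IL-2 or an attenuated form of it is given with or without interference with antigen presentation. All mice were C57BL/6 females of 8 to 12 weeks with no genetic change named in the labels, and all received an antibody, either an isotype control or an antibody that blocks MHC class II, at 500 µg on day -1 and day 0. On day 0 they were injected under the skin with PBS or with 25 µg of a molecule, which was WT IL-2, H16R or 3x, and spleens were taken on day 4. H16R and 3x are IL-2 muteins with attenuated receptor binding, and all 3 molecules are human IL-2 fused to an Fc part. The 8 combinations of antibody and treatment had 4 mice each for Tregs (32 libraries), and Tcons were sequenced from 2 of the 4 mice in each (16 libraries). In the isotype WT IL-2 group, 2 Treg libraries carry the same mouse label and were counted as separate mice, since the methods give 4 mice a group and 1 sample a mouse. Cells were separated with a magnetic kit, in which Tregs are the CD25-bound CD4 T cells and Tcons the CD25-negative remainder, so neither fraction was sorted on Foxp3.

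Cytokine receptors of these families have no enzymatic part of their own. The type I and type II receptors work through JAK kinases bound to their tails, which phosphorylate STAT factors, whereas receptors of the IL-1 family recruit the adaptor MyD88. Most are assembled from a private chain that recognises the cytokine and a chain shared between several receptors, such as the common gamma chain (Il2rg) for IL-2, IL-4, IL-7, IL-15 and IL-21, or gp130 (Il6st) for IL-6 and IL-27. In Tregs, IL-7 receptor alpha is known as a chain that is low relative to other CD4 T cells, IL-10 receptor signalling as a support of their suppressive function, and Il1r2 as a decoy that binds IL-1 without signalling.

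Several of the genes lie beside another receptor gene in the GRCm38 genome. Il4ra (chromosome 7, 125552120 to 125579474, plus strand) and Il21r (chromosome 7, 125603429 to 125633570, plus strand) are neighbours with a gap of 23.95 kb. Il1r2 (chromosome 1, 40074079 to 40125231) and Il18r1 (chromosome 1, 40465552 to 40500854) lie on the same stretch of the plus strand, Il1r2 99.85 kb before Il1r1, and Il18r1 0.137 kb after Il1rl1 and 14.51 kb before Il18rap. Il15ra (chromosome 2, 11705290 to 11734317, plus strand) starts 12.1 kb after Il2ra. Il6ra is at chromosome 3, 89864059 to 89913196, Il7r at chromosome 15, 9505788 to 9530176, Il10ra at chromosome 9, 45253837 to 45269149 and Il27ra at chromosome 8, 84030294 to 84042589, all on the minus strand, and Il6st is on the plus strand of chromosome 13, 112464070 to 112510086. Annotated genes overlap 5 of these loci. The overlaps are 9624 bases of the antisense Gm16894 and 3071 bases of Gm37347 on the same strand in Il1r2, 1342 bases of the antisense Gm44876 in Il4ra, 281 bases of the antisense Gm42809 in Il6ra, 236 bases of the pseudogene Gm20612 and 65 bases of Mir7086 in Il10ra, and 2 bases of Palm3 in Il27ra. Whether counting used the strand is not given in the sources used here, so reads of these pairs may not be told apart.

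Because IL-2 and several of the receptors here signal through STAT factors, the promoter windows of the members were searched for the spaced palindrome TTCNNNGAA, the core letters of the STAT element, which reads the same on both strands. RefSeq (GRCm38.p6) windows from 250 bases before to 50 bases after the gene start gave 11 windows for 8 of the 10 members, all but Il10ra and Il27ra. A match was present in 3 of the 11 windows (27.3%), 1 each of Il7r, Il18r1 and Il1r2, against 2726 of all 32851 windows (8.3%). With so few windows this share is not a result about the members. The 4 matches are shown with the palindrome in capitals and its flanks in lower case, and their part in any response was not tested. Positions are counted from the start that RefSeq gives, which for all 3 genes lies inside the span given above, as do the matches. The Il7r match starts 142 bases before that start (chr15:9530000-9530028, minus strand), those of Il18r1 219 and 152 bases before it (chr1:40465777-40465805 and chr1:40465844-40465872, plus strand) and that of Il1r2 111 bases before it (chr1:40085972-40086000, plus strand).
Il7r: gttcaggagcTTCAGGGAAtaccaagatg
Il18r1, distal: tcggggttagTTCTGGGAActgtggagct
Il18r1, proximal: agtacaggtcTTCCCAGAActgaaagctt
Il1r2: cgggtgctttTTCAAGGAActtccgacta
A match is a run of letters and not a known site. Il10ra, the gene that rose under every molecule, could not be examined in this way, and no window of Il4ra, Il6ra, Il6st, Il15ra or Il21r held these letters.

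Library totals were 18.28 to 51.24 M expected counts for Tregs and 31.31 to 51.95 M for Tcons. Foxp3, the factor that defines Tregs, was at 692 to 1180 CPM (counts scaled to the sum of the library) in Tregs and 48.4 to 186 CPM in Tcons, so the labelled cell types matched their main marker. The summed level of 5 Treg markers was 2430 to 4480 CPM in Tregs and 343 to 1450 CPM in Tcons. From such markers, 3 of the 48 libraries were taken as standing apart and left out in an alternative. Treg isotype PBS replicate 1 had 552 CPM of B cell and 101 CPM of myeloid markers (99.2 to 130 and 11.4 to 21.6 in the other 3 of its group), Treg MHC II block WT IL-2 replicate 1 had 522 CPM of B cell and 558 CPM of myeloid markers (71.3 to 107 and 21.0 to 62.0 in the others), and the highest Treg marker sum among Tcons, 1450 CPM, was that of isotype WT IL-2 replicate 2 (343 to 738 in the other Tcons). Member calls that change without these 3 libraries are named beside the results. Others with raised markers stayed in, among them both Tcon isotype PBS libraries (B cell sums of 856 and 792 CPM, 107 to 386 in the other Tcons), both Tcon MHC II block WT IL-2 libraries (myeloid sums of 564 and 662 CPM, 26.2 to 196 in the other Tcons), Tcon isotype WT IL-2 replicate 1 (erythroid sum of 204 CPM, 11.9 in replicate 2) and Treg MHC II block 3x replicate 4 (CD8 T cell sum of 35.9 CPM, 13.4 to 16.0 in the others of its group). In bulk RNA, fewer cells of a type and less RNA per cell cannot be told apart.

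Per unit of transcript length, the receptors of IL-21 and IL-27 were the most abundant of these 10 genes in resting Tregs. In isotype PBS Tregs the level in FPKM (fragments per kilobase of transcript, scaled to library reads) was 127 ± 6.6 (SD, n = 4) for Il21r and 126 ± 4.86 for Il27ra, followed by Il4ra (68.7 ± 4.81), Il7r (56.3 ± 14.3), Il6st (44.0 ± 5.67, n = 3), Il6ra (43.7 ± 3.94), Il18r1 (33.4 ± 7.81), Il10ra (24.3 ± 2.25), Il1r2 (23.1 ± 6.57) and Il15ra (9.8 ± 0.455). In this order only Il27ra and Il4ra, and Il1r2 and Il15ra, were neighbours whose libraries did not overlap. Il6st has 3 values because its cell is empty in isotype PBS replicate 4. In isotype PBS Tcons (n = 2) Il27ra led with 103 ± 2.42 FPKM, Il7r (88.2 ± 7.91) and Il21r (77.1 ± 4.61) followed, and Il15ra (6.04 ± 0.286) and Il1r2 (4.54 ± 1.96) were last and overlapped.

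**Figure D1:**
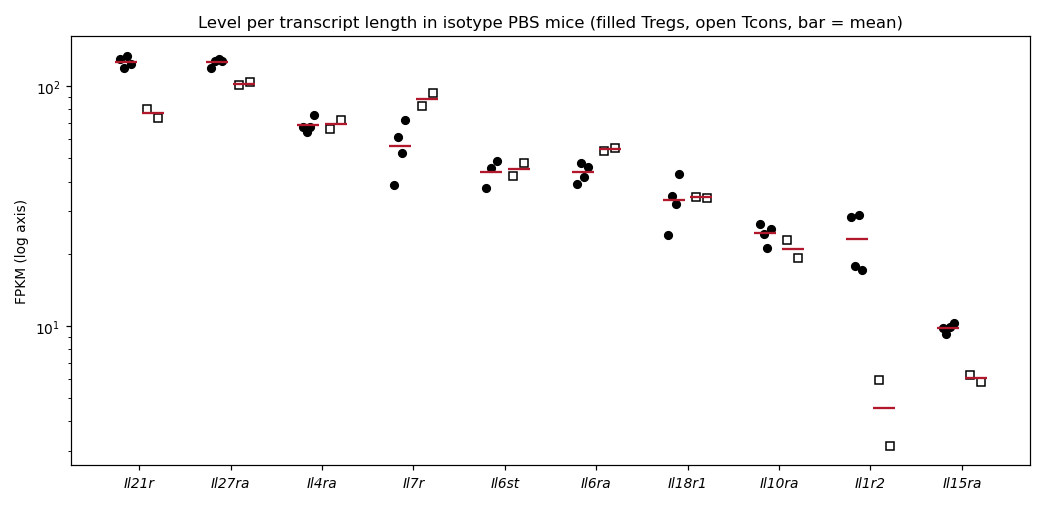
The level of each receptor gene in FPKM on a log axis is plotted for isotype PBS mice, with filled circles for the Treg libraries, open squares for the 2 Tcon libraries and a bar at the mean. Il21r and Il27ra head the order in Tregs at 127 and 126 FPKM, and Il1r2 falls from 23.1 FPKM in Tregs to 4.54 in Tcons.

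Tregs and Tcons of the same 16 mice differed in 8 of the 10 genes (edgeR quasi-likelihood test paired by mouse, Benjamini-Hochberg adjusted p under 0.1), 7 higher and 1 lower in Tregs. Over all 12844 genes tested, 75.9% were called (38.2% higher, 37.7% lower), so the count for the receptors is close to the background and only the sizes set single genes apart. The widest difference was that of Il1r2, which was higher in Tregs of 16 of 16 mice, by 1.102 to 3.485 on the log2 scale of CPM, and was 5.18-fold higher in the fit (log2 2.37, SE 0.163, adjusted p = 2.7e-10). Il10ra was also higher in 16 of 16 mice (0.225 to 1.507) and 2.06-fold higher in the fit (adjusted p = 1.22e-07), and Il21r in 16 of 16 mice (0.432 to 0.916) and 1.74-fold (adjusted p = 8.17e-13). Il7r was the gene lower in Tregs, in 16 of 16 mice (-1.092 to -0.086), and 0.701-fold in the fit (adjusted p = 4.53e-07). Marker sums of other cells differed between the fractions too, such as that of basophils or mast cells (9.87 to 55.7 CPM in Tcons, 0.758 to 6.81 in Tregs). The naive and central T cell sum was at 2140 to 3630 CPM in Tcons and 1490 to 2300 in Tregs. Their part in the differences between the cell types was not tested.

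The remaining differences between the cell types were smaller. Il15ra was higher in Tregs of 15 of 16 mice (1.32-fold, adjusted p = 9.46e-07) and Il27ra in 14 of 16 (1.17-fold, adjusted p = 5.09e-06). Il6st (1.19-fold, adjusted p = 0.00226) and Il18r1 (1.13-fold, adjusted p = 0.0524) were each higher in 10 of 16 mice, and the Il18r1 call is lost with library totals in place of TMM factors (log2 0.11, adjusted p = 0.223) and without the mouse of MHC II block WT IL-2 replicate 2 or 3x replicate 1 or 2 (0.12 to 0.15, adjusted p = 0.101 to 0.142). Il4ra (log2 difference -0.07, 95% interval -0.225 to 0.074) and Il6ra (-0.07, -0.175 to 0.032) did not pass the test, and both passed as lower in Tregs with library totals (-0.15, adjusted p = 0.078, and -0.14, adjusted p = 0.00658). Il6ra also passed without the mouse of isotype H16R replicate 1 (-0.10, adjusted p = 0.0558).

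The differences were also fitted at baseline. In the fitted isotype PBS baseline, where 53.8% of all genes were called, 9 of the 10 genes passed. Il1r2 (7.39-fold), Il21r (1.64-fold), Il15ra (1.51-fold), Il10ra (1.36-fold) and Il27ra (1.16-fold) were higher in Tregs. Il7r (0.577-fold), Il6ra (0.827-fold), Il18r1 (0.844-fold) and Il6st (0.902-fold) were lower, the last 2 only while the libraries that stand apart were kept (-0.12, adjusted p = 0.43, and -0.13, adjusted p = 0.153, without them). Leaving out the mouse of isotype PBS replicate 1 alone gave -0.14 (adjusted p = 0.419) and -0.13 (adjusted p = 0.131), and Il18r1 was lost in 9 of the 16 fits without 1 mouse. This baseline is estimated from all 16 mice, in a fit where molecule and antibody shift the difference by additive terms. It is therefore not the contrast of the isotype PBS mice alone. The isotype PBS Tcons are the 2 libraries with the highest B cell sums, whose part in it was not tested. For Il6st and Il18r1 the baseline had the opposite direction to the mean over all 16 mice.

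**Figure D2:**
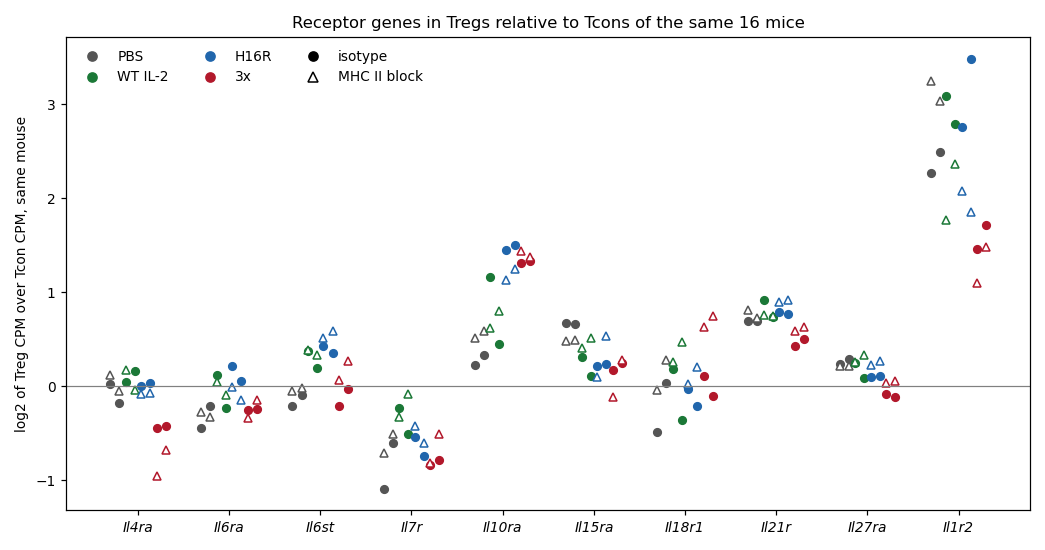
Each point is the log2 ratio of the Treg CPM to the Tcon CPM of 1 mouse, for the 16 mice with both libraries, with colours for treatment, circles for isotype and triangles for MHC II block. All points of Il10ra, Il21r and Il1r2 lie above 0 and all points of Il7r below it, while those of Il4ra and Il6ra lie on both sides.

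The number of receptor genes that changed in Tregs against PBS was 3 of 10 under WT IL-2, 5 under H16R and 5 under 3x in isotype mice, and 9, 7 and 10 under MHC II block. Over all 12392 genes tested, the share called was 52.2% for WT IL-2 (26.0% higher, 26.2% lower), 64.2% for H16R (31.4% and 32.8%) and 63.6% for 3x (31.3% and 32.3%) in isotype mice. Under MHC II block the corresponding shares were 35.6% (21.9% higher, 13.7% lower), 66.5% (32.7% and 33.8%) and 73.0% (34.7% and 38.3%). The receptor counts lay below these shares in isotype mice, above them under WT IL-2 and 3x with block, and near them under H16R with block. With only 10 genes, and some calls that move when 1 library is left out, these counts are not a result about the receptors as a group. The 3 molecules of an antibody arm share 1 set of PBS libraries. Il6st has no value in 1 isotype PBS library and was tested in a fit without that library, whose background was 39.6%, 68.8% and 74.8% for the 3 molecules under block.

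**Figure D3:**
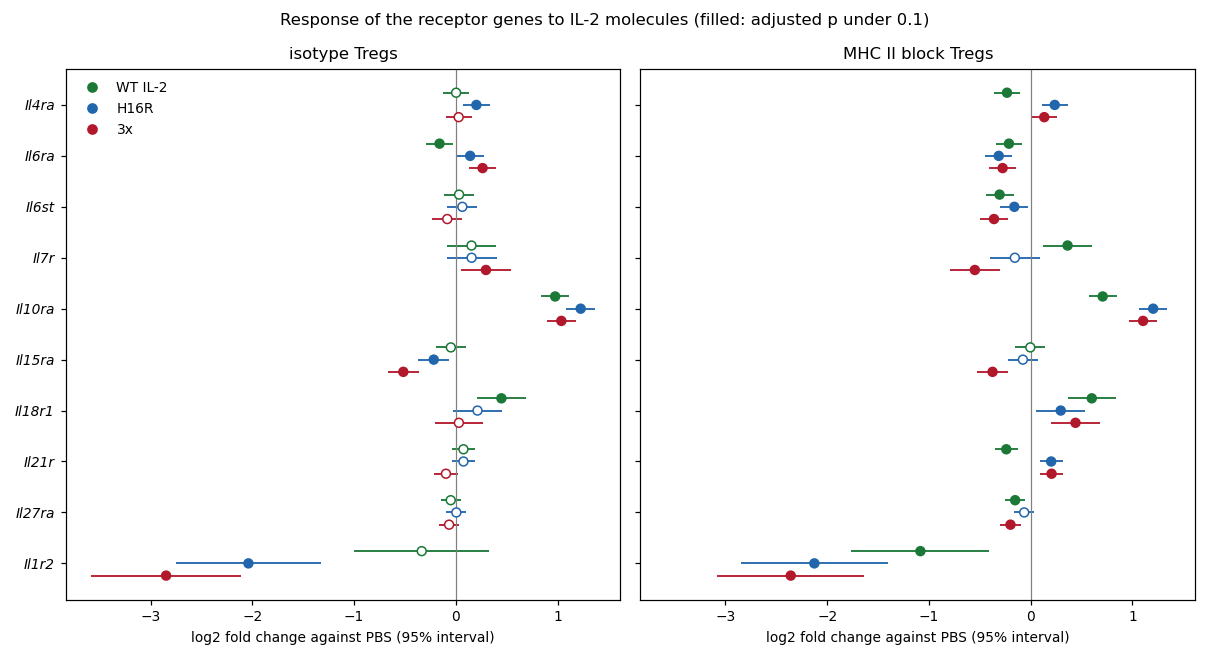
Log2 fold changes against PBS with 95% intervals are plotted for the 10 genes in isotype (left) and MHC II block (right) Tregs, with a colour for each molecule and filled points where the adjusted p is under 0.1. Il10ra lies between 0.71 and 1.23 in all 6 comparisons, Il1r2 extends to -2.85, and the other genes stay within 0.6 of 0.

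Il10ra, the ligand-binding chain of the IL-10 receptor, was the only member that rose under every molecule and both antibodies. Isotype PBS Tregs had 93.2, 85.6, 75.0 and 89.7 CPM, against 172, 150, 168 and 170 CPM under WT IL-2, 207, 185, 199 and 177 CPM under H16R and 172, 166, 175 and 164 CPM under 3x. No treated library overlapped the PBS libraries. The rise was 1.97-fold under WT IL-2 (log2 0.98, SE 0.069, adjusted p = 9.18e-12), 2.34-fold under H16R (1.23, SE 0.069, adjusted p = 3.73e-14) and 2.05-fold under 3x (1.04, SE 0.069, adjusted p = 1.32e-12). With MHC II block, PBS Tregs had 88.0, 88.9, 92.3 and 82.6 CPM, WT IL-2 Tregs 161, 134, 124 and 137, H16R Tregs 186, 186, 206 and 200, and 3x Tregs 192, 178, 187 and 181. The groups again did not overlap PBS, and the folds were 1.63 (adjusted p = 2.16e-08), 2.3 (adjusted p = 3.94e-14) and 2.15 (adjusted p = 7.64e-14).

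The Il10ra rise under WT IL-2 was smaller with block than with isotype, by 0.27 on the log2 scale (interaction, adjusted p = 0.0595). The call was lost without isotype PBS replicate 3, isotype WT IL-2 replicate 1, or block PBS replicate 3 or WT IL-2 replicate 3 or 4 (-0.21 to -0.26, adjusted p = 0.10 to 0.142). For H16R and 3x the difference between antibodies was -0.03 (95% interval -0.221 to 0.172) and 0.07 (-0.129 to 0.263). In Tcons the gene was at 59.2 to 110 CPM in all 16 libraries. The pooled Tcon response passed for WT IL-2 (1.39-fold, adjusted p = 0.0232) and not for H16R (log2 0.17, 95% interval -0.09 to 0.441) or 3x (0.03, -0.235 to 0.295). The response of Tregs exceeded that of Tcons of the same mice by 0.38 for WT IL-2 (adjusted p = 0.0714, lost without the mouse of isotype PBS replicate 1 or 2, isotype WT IL-2 replicate 1 or block WT IL-2 replicate 2 at 0.13 to 0.242), 1.00 for H16R (adjusted p = 0.000124) and 1.01 for 3x (adjusted p = 4.62e-05). The higher of the 2 Tcon WT IL-2 libraries with isotype, 110 CPM, is the one with the high Treg marker sum, and the call held without it.

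Il10rb, the second chain of that receptor, rose in 5 of the 6 comparisons by 0.18 to 0.39 on the log2 scale, and gave 0.05 under 3x with block, which did not pass. Il10 itself, the ligand, rose in all 6, from a mean of 36.8 CPM in isotype PBS Tregs to 157 under WT IL-2, 177 under H16R and 119 under 3x, and from 34.4 to 82.4, 248 and 209 CPM with block. The mean levels of Il10ra and Il10 were both highest under H16R in each antibody arm. The summed level of 5 effector Treg markers moved in the same groups, from 425 to 493 CPM in isotype PBS to 1120 to 1220, 1050 to 1190 and 904 to 1060 CPM, and with block from 454 to 486 CPM to 610 to 771, 1040 to 1320 and 1070 to 1220 CPM. Its part in the Il10ra result was not tested.

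Il1r2, the IL-1 decoy receptor, fell furthest of the 10 genes. Isotype PBS Tregs had 40.9, 25.4, 41.5 and 24.5 CPM, H16R Tregs 7.41, 7.72, 3.53 and 12.5, and 3x Tregs 4.74, 5.08, 5.47 and 2.52. Neither mutein group overlapped PBS, and Il1r2 was 0.244-fold under H16R (log2 -2.04, SE 0.346, adjusted p = 1.32e-05) and 0.139-fold under 3x (-2.85, SE 0.361, adjusted p = 1.65e-07). WT IL-2 Tregs were spread over 13.7, 48.0, 17.8 and 23.6 CPM and did not pass (log2 -0.34, 95% interval -0.999 to 0.329). Without the library at 48.0 CPM, replicate 2, WT IL-2 did pass (log2 -0.80, adjusted p = 0.0382). That library has the lowest myeloid marker sum of its group, 8.88 CPM. It is from the mouse whose Tcon library has the high Treg marker sum. Il1r2 in that Tcon library was at 6.95 CPM, against 1.62 CPM in Tcon isotype WT IL-2 replicate 1.

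With MHC II block, Il1r2 was at 18.3, 26.7, 29.3 and 43.9 CPM under PBS, 11.3, 18.1, 13.7 and 10.9 under WT IL-2, 7.93, 5.57, 7.29 and 5.22 under H16R, and 5.05, 6.98, 6.37 and 4.21 under 3x. All 3 treated groups lay below all PBS libraries, with folds of 0.472 (adjusted p = 0.015), 0.229 (adjusted p = 8.8e-06) and 0.195 (adjusted p = 1.27e-06). The library with high myeloid markers, WT IL-2 replicate 1, had 11.3 CPM, within the range of the other 3. In Tcons, Il1r2 was at 0.689 to 8.5 CPM, with a fall under H16R (0.291-fold, adjusted p = 0.0238) and an unpassed difference of -1.14 under 3x (95% interval -2.168 to -0.112, adjusted p = 0.181). Il1r1, the signalling IL-1 receptor, was at a mean of 12.0 CPM in isotype PBS Tregs and fell under H16R and 3x with isotype (log2 -0.92 and -1.55) but passed no test with block, where its differences were 0.23, -0.32 and -0.10. With isotype, the B cell marker sum lay at 99.2 to 552 CPM under PBS, 25.2 to 33.0 under H16R and 23.3 to 30.5 under 3x, and the dendritic cell sum at 16.8 to 37.5, 3.55 to 5.2 and 4.99 to 7.08 CPM. Both sums were also below PBS under WT IL-2 with isotype (41.3 to 76.8 and 7.25 to 10.3 CPM), where Il1r2 did not pass. With block, where Il1r2 fell too, the dendritic cell sum was at 14.5 to 24.3 CPM under PBS, 20.3 to 81.6 under WT IL-2, 17.5 to 27.7 under H16R and 18.4 to 25.8 under 3x. The myeloid sum with block was at 7.93 to 19.4 CPM under PBS and higher without overlap under WT IL-2 (21.0 to 558), H16R (24.9 to 58.9) and 3x (39.6 to 57.8). Without the libraries that stand apart the isotype differences under H16R and 3x were -1.92 and -2.73 for Il1r2 and -1.14 and -1.77 for Il1r1. The part of the markers in these differences and in those with block was not tested. Without those libraries Il1r1 also passed under WT IL-2 with isotype (-0.54, adjusted p = 0.0206). Il1rap, the chain both receptors share, changed in 1 of 6 comparisons, by -0.20 under H16R with block.

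Il18r1, the IL-18 binding chain, rose under WT IL-2 in both arms. Isotype PBS Tregs had 87.6, 123, 117 and 151 CPM and WT IL-2 Tregs 137, 185, 133 and 180, which overlap but differ 1.36-fold (log2 0.45, SE 0.117, adjusted p = 0.00272). The lowest PBS value is that of replicate 1, the library with high B cell markers, and the call held without it. H16R (log2 0.21, 95% interval -0.026 to 0.453) and 3x (0.03, -0.209 to 0.27) did not pass with isotype, but H16R passed in 7 of the fits that left out 1 library, and without PBS replicate 4 it was at 0.34 (adjusted p = 0.0128). With block, the gene was at 117, 128, 125 and 112 CPM under PBS, 172, 153, 190 and 194 under WT IL-2, 140, 152, 153 and 124 under H16R, and 155, 170, 163 and 152 under 3x, and all 3 passed (1.52-fold, 1.23-fold and 1.36-fold). The difference of the 3x response between antibodies was 0.41 on the log2 scale (adjusted p = 0.0589), and it was lost without isotype PBS replicate 4 (0.28, adjusted p = 0.159) or isotype 3x replicate 2 (0.39, adjusted p = 0.101). The summed NK cell markers were higher under WT IL-2 with block (28.0 to 37.9 CPM) than under PBS with block (16.5 to 24.1), at 15.3 to 27.0 and 17.1 to 22.8 CPM under H16R and 3x with block, and lower under WT IL-2 (11.0 to 15.5) than under PBS (17.8 to 32.5) with isotype, where Il18r1 rose as well. Under 3x they were higher with block than with isotype (8.52 to 14.3 CPM), as was Il18r1. Their part in these results was not tested. Il18rap, the second chain of the receptor, had the same set of calls with block (log2 0.85, 0.64 and 0.70) and with isotype rose under WT IL-2 (0.34) and gave 0.07 and -0.12 for the muteins.

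Il7r, the IL-7 receptor alpha chain, moved in opposite directions according to the molecule and antibody. Isotype PBS Tregs had 139, 220, 187 and 259 CPM, WT IL-2 Tregs 221, 217, 231 and 202, H16R Tregs 222, 205, 203 and 221, and 3x Tregs 262, 245, 206 and 233. The PBS libraries spanned nearly all others, and although 3x passed (1.23-fold, adjusted p = 0.0355), that call was lost without PBS replicate 1, the library with high B cell markers (log2 0.15, adjusted p = 0.216), or without 3x replicate 1 (0.24, adjusted p = 0.111). Without PBS replicate 4, the highest of its group, WT IL-2 (0.30, adjusted p = 0.0328) and H16R (0.30, adjusted p = 0.0273) passed as well. With block, PBS Tregs had 199, 206, 218 and 197 CPM, WT IL-2 Tregs 201, 268, 271 and 280, H16R Tregs 184, 181, 184 and 158, and 3x Tregs 129, 165, 123 and 130. WT IL-2 raised the gene 1.29-fold (adjusted p = 0.0234), H16R did not pass (log2 -0.16, 95% interval -0.401 to 0.089), though its 4 libraries all lay below PBS, and 3x lowered it to 0.684-fold (adjusted p = 0.000217).

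The 3x response of Il7r accordingly differed between antibodies by -0.84 on the log2 scale (SE 0.169, adjusted p = 0.000544), the widest of the called interactions among the 10 genes. Under 3x, block Tregs had 0.562-fold the level of isotype Tregs (adjusted p = 3.24e-06). The summed naive and central T cell markers differed in the same direction, at 2160 to 2300 CPM in isotype and 1720 to 1770 CPM in block 3x Tregs, and their part in this difference and in that of Il6ra under 3x was not tested. The difference was present in Tcons too, with 468 and 424 CPM under 3x with isotype and 228 and 236 CPM with block, against 295 and 335 CPM and 326 and 293 CPM under PBS. In these 3x Tcons the naive and central T cell markers summed to 3560 and 3630 CPM with isotype and 2830 and 2650 CPM with block, and the myeloid markers to 33.2 and 54.7 and to 196 and 182 CPM, and their part was not tested. Averaged over treatments, block lowered Il7r in Tcons to 0.777-fold (adjusted p = 0.0476), a call lost without either block 3x Tcon library (adjusted p = 0.106 and 0.11).

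Il15ra, the high-affinity IL-15 chain, was low in all groups and fell under the muteins. Isotype PBS Tregs had 15.6, 14.6, 15.4 and 16.9 CPM, WT IL-2 Tregs 13.8, 15.8, 14.0 and 15.5, H16R Tregs 13.5, 11.9, 12.4 and 13.5, and 3x Tregs 9.36, 10.6, 11.4 and 10.6. WT IL-2 overlapped PBS and did not pass (log2 -0.05, 95% interval -0.198 to 0.101), while H16R (0.86-fold, adjusted p = 0.0127) and 3x (0.699-fold, adjusted p = 1.08e-06) lay below every PBS library. With block the fall passed for 3x (0.771-fold, adjusted p = 5.31e-05), with libraries at 10.1, 11.9, 12.0 and 11.3 CPM against 14.7, 15.6, 13.9 and 15.8 under PBS, and not for WT IL-2 (-0.00, -0.152 to 0.145) or H16R (-0.08, -0.227 to 0.072). Il2ra, the neighbour of Il15ra and the IL-2 binding chain, was at 371 CPM in isotype PBS Tregs and 626 CPM under 3x, the reverse direction.

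Il4ra and Il21r, the adjacent genes of the IL-4 and IL-21 receptors, changed by little with isotype and moved together with block. Il4ra with isotype was at 341 to 401 CPM under PBS and rose under H16R (1.15-fold, adjusted p = 0.0075), where 3 libraries had 378, 384 and 385 CPM and replicate 3 had 453. For Il21r no isotype comparison passed, and 3x Tregs (270, 282, 264 and 269 CPM) nevertheless lay just below all PBS libraries (309, 284, 321 and 294). The log2 difference was -0.10 (95% interval -0.211 to 0.017), and it passed without PBS replicate 2 (-0.12, adjusted p = 0.079) or with library totals (-0.15, adjusted p = 0.0172). With block, Il4ra was at 366, 343, 340 and 331 CPM under PBS, 267, 302, 295 and 273 under WT IL-2, 389, 411, 346 and 417 under H16R, and 356, 352, 388 and 382 under 3x. Il21r was at 303, 311, 280 and 298 CPM, then 220, 263, 258 and 236, 328, 322, 309 and 358, and 348, 314, 333 and 345 CPM. WT IL-2 lowered both genes below all PBS libraries (0.851-fold, adjusted p = 0.00658, and 0.847-fold, adjusted p = 0.00194). H16R (1.18-fold and 1.15-fold) and 3x (1.1-fold and 1.15-fold) raised both, although the Il4ra rise under 3x was lost without block PBS replicate 4 or 3x replicate 3 or 4 (log2 0.12 to 0.13, adjusted p = 0.114 to 0.123) and with library totals (0.10, adjusted p = 0.161). The interaction with antibody passed for WT IL-2 in both genes (-0.24 for Il4ra, adjusted p = 0.0766, and -0.32 for Il21r, adjusted p = 0.00649), and for 3x in Il21r (0.30, adjusted p = 0.00514) and not in Il4ra (0.10, 95% interval -0.078 to 0.287). The Il4ra interaction was lost without the libraries that stand apart (-0.20, adjusted p = 0.159) and without any of 7 single libraries, which were isotype PBS replicate 1 or 2, isotype WT IL-2 replicate 1, block PBS replicate 1 or 2 and block WT IL-2 replicate 1 or 4 (-0.20 to -0.24, adjusted p = 0.101 to 0.16). The myeloid sum under WT IL-2 with block was 21.0 to 558 CPM, against 7.93 to 19.4 under PBS with block. The NK cell sum was 28.0 to 37.9 against 16.5 to 24.1 CPM. Their part in the falls of Il4ra, Il21r, Il6ra, Il6st and Il27ra in this comparison was not tested.

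Tcons gave another pattern for Il4ra. Under 3x it was at 471 and 479 CPM with isotype and 694 and 564 CPM with block, above the 2 PBS libraries of each antibody (352 and 385, 339 and 357), a 1.53-fold rise over both (adjusted p = 0.0163). With block, marker sums were higher in the 3x than in the PBS Tcons for myeloid (182 and 196 against 27.4 and 28.1 CPM), dendritic (135 and 152 against 30.6 and 31.7) and basophil or mast cells (50.6 and 54.0 against 12.6 and 13.6). With isotype they were at 33.2 and 54.7, 45.6 and 45.9, and 12.6 and 13.1 CPM under 3x, against 108 and 111, 90.7 and 133, and 9.87 and 15.1 CPM under PBS, and their part in the Il4ra values was not tested. The 3x response of Il4ra was lower in Tregs than in Tcons of the same mice by 0.54 on the log2 scale (adjusted p = 0.000224). This made Il4ra lower in Tregs than in Tcons in all 4 of the 3x mice, with log2 ratios down to -0.962, while the 12 other mice lay between -0.175 and 0.166.

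**Figure D4:**
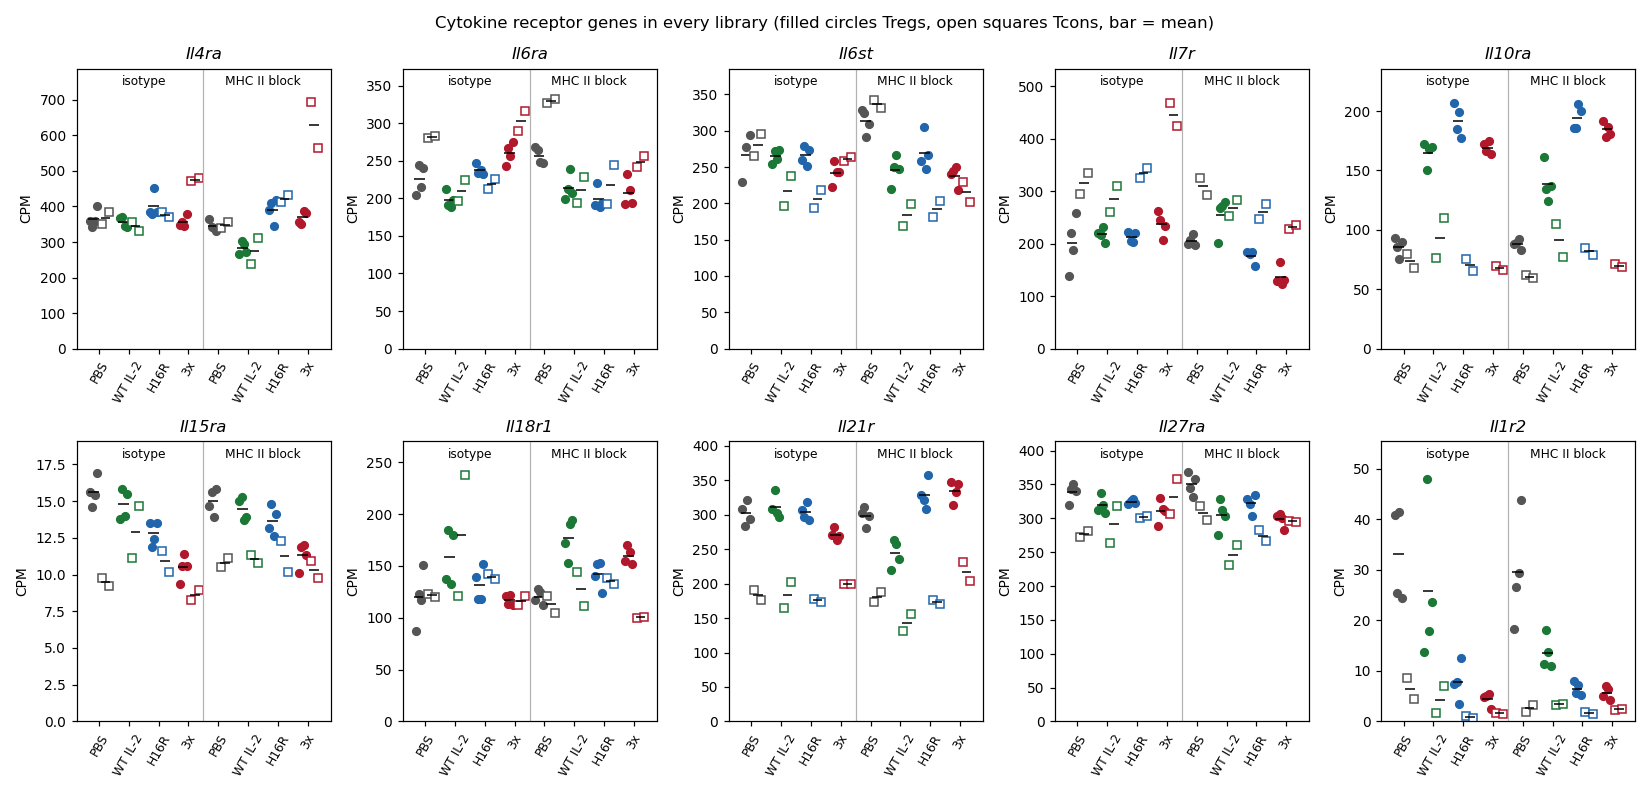
CPM of each of the 10 genes is plotted for every library by treatment, isotype on the left and MHC II block on the right of each panel, with filled circles for Tregs, open squares for Tcons and a bar at each mean, on axes that start at 0. Il10ra rises from 75.0 to 93.2 CPM under PBS to 124 to 207 CPM in all treated Tregs, and Il7r under 3x is lower with block than with isotype in both cell types.

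Of the gp130 group, Il6ra, the IL-6 binding chain, reversed its direction under the muteins between the antibodies. Isotype PBS Tregs had 205, 245, 215 and 240 CPM, WT IL-2 Tregs 213, 191, 188 and 198, H16R Tregs 247, 234, 238 and 232, and 3x Tregs 243, 267, 257 and 275. These groups overlapped PBS. WT IL-2 lowered the gene (0.895-fold, adjusted p = 0.0431), and H16R (1.1-fold, adjusted p = 0.0603) and 3x (1.2-fold, adjusted p = 0.000915) raised it. The WT IL-2 call was lost without isotype PBS replicate 2 or 4 or WT IL-2 replicate 2 or 3a (log2 -0.12 to -0.14, adjusted p = 0.119 to 0.159). That of H16R was lost without PBS replicate 1 or 3 or H16R replicate 1 or 3 (0.10 to 0.13, adjusted p = 0.116 to 0.216), with library totals (0.07, adjusted p = 0.346) and without the libraries that stand apart (0.10, adjusted p = 0.208). With block, PBS Tregs had 269, 264, 248 and 247 CPM, WT IL-2 Tregs 199, 213, 239 and 207, H16R Tregs 191, 221, 189 and 194, and 3x Tregs 192, 232, 211 and 194. All treated libraries lay below all PBS libraries, at 0.862-fold (adjusted p = 0.0131), 0.805-fold (adjusted p = 0.000129) and 0.826-fold (adjusted p = 0.000409). The response differed between antibodies by -0.46 for H16R (adjusted p = 0.00211) and -0.54 for 3x (adjusted p = 8.56e-05), and by -0.05 for WT IL-2 (95% interval -0.239 to 0.131). The naive and central T cell marker sum was lower with block under H16R too (1670 to 1910 CPM, against 1940 to 2260 with isotype), and its part in the H16R differences of Il6ra and Il7r between antibodies was not tested. Under 3x this sum lay above PBS with isotype (2160 to 2300 against 1850 to 2030 CPM) and below PBS with block (1720 to 1770 against 1820 to 2100 CPM). Its part in the responses of Il6ra and Il7r to 3x was not tested.

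Il6st, which encodes gp130, passed no comparison with PBS in isotype Tregs, with log2 differences of 0.03, 0.06 and -0.08 for WT IL-2, H16R and 3x. With block, PBS Tregs had 329, 325, 291 and 309 CPM, and WT IL-2 Tregs 220, 250, 267 and 248, H16R Tregs 259, 305, 248 and 267, and 3x Tregs 240, 244, 250 and 219. The folds were 0.809 (adjusted p = 0.00111), 0.894 (adjusted p = 0.039) and 0.779 (adjusted p = 3.12e-05), and the interaction with antibody passed for WT IL-2 (-0.34, adjusted p = 0.0213, background 19.0%) and 3x (-0.28, adjusted p = 0.0301, background 45.7%). Il6st was also the single member that differed between antibodies under PBS (1.16-fold higher with block, adjusted p = 0.0664, where 12.5% of genes were called), with 230, 277 and 294 CPM in the 3 isotype libraries. The lowest of these is replicate 1, the library with high B cell markers, and the 220 CPM under WT IL-2 with block is the library with high myeloid markers. Without both, Il6st no longer differed past the threshold between antibodies under PBS (log2 0.11, adjusted p = 0.411) or in the interactions for WT IL-2 (-0.17, adjusted p = 0.252) and 3x (-0.17, adjusted p = 0.144), while the falls with block held (-0.26, -0.16 and -0.36). In that fit, which leaves 2 isotype PBS libraries, 3x passed as lower than PBS with isotype (-0.19, adjusted p = 0.0206). Il6ra under PBS lay higher with block in all libraries and just missed the threshold (1.12-fold, adjusted p = 0.102), which it passed in 12 of the fits without 1 library.

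Il27ra, the private chain of the IL-27 receptor, had the narrowest range in Tregs relative to its level. Isotype Tregs lay between 288 and 351 CPM in all 16 libraries, and the 3 differences from PBS (-0.05, 0.01 and -0.07) had 95% intervals within -0.164 and 0.103. With block, PBS Tregs had 369, 345, 331 and 358 CPM, and the gene fell to 0.899-fold under WT IL-2 (276, 329, 313 and 303 CPM, adjusted p = 0.0179) and 0.871-fold under 3x (303, 307, 301 and 282 CPM, adjusted p = 0.000657), with no overlap. In Tcons, Il6ra and Il6st were highest under PBS with block (327 and 332 CPM, and 342 and 331 CPM) and fell together under WT IL-2 (0.695-fold, adjusted p = 0.00839, and 0.652-fold, adjusted p = 0.00522) and H16R (0.711-fold, adjusted p = 0.0086, and 0.638-fold, adjusted p = 0.00273). Under 3x, Il6st fell (0.765-fold, adjusted p = 0.0731, lost without either block PBS or either block 3x library at 0.164 to 0.204) and Il6ra did not pass (log2 -0.15, 95% interval -0.387 to 0.081).

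The 3 molecules were given at 1 matched dose and read at 1 time, so they were compared with each other in 6 pairs, 3 within each antibody arm, with p-values adjusted over all genes tested in each pair. H16R and 3x differ from WT IL-2 by amino acid exchanges that attenuate receptor binding. In separate mice, the paper also found that the molecules differed in how long they stayed in serum and how long STAT5 stayed phosphorylated. A matched dose is therefore not a matched exposure. The part of exposure and its duration in the differences between molecules was not tested. With isotype, H16R against WT IL-2 called 4 of the 10 members (18.6% of all genes), 3x against WT IL-2 called 5 (34.7%) and 3x against H16R called 4 (11.5%). With block, the counts were 7, 6 and 4 members, against 57.5%, 68.7% and 25.2% of all genes, or 60.5% for H16R against WT IL-2 and 28.9% for 3x against H16R in the fit that tested Il6st.

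The widest differences between molecules were those of Il1r2. It was 0.307-fold under H16R relative to WT IL-2 with isotype (adjusted p = 0.00184) and 0.175-fold under 3x (adjusted p = 9.53e-06), and 0.486-fold (adjusted p = 0.0161) and 0.414-fold (adjusted p = 0.00279) with block. The muteins were not told apart from each other for this gene (log2 -0.81, 95% interval -1.553 to -0.067, adjusted p = 0.189 with isotype, and -0.23, -0.983 to 0.519 with block), although without isotype H16R replicate 3 they were (-1.06, adjusted p = 0.0741). Il10ra was higher under H16R than under WT IL-2 in both arms (1.19-fold, adjusted p = 0.0138, and 1.41-fold, adjusted p = 1.7e-06), whereas 3x exceeded WT IL-2 with block (1.32-fold, adjusted p = 1.28e-05) and not with isotype (log2 0.06, -0.075 to 0.198).

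Il15ra was the gene that separated 3x from both other molecules in both arms. Relative to H16R it was 0.813-fold with isotype (adjusted p = 0.0113) and 0.813-fold with block (adjusted p = 0.00498), and relative to WT IL-2 0.723-fold and 0.773-fold. Il7r did not separate the molecules with isotype (95% intervals within -0.242 and 0.385) but with block fell in order, to 0.698-fold under H16R (adjusted p = 0.000897) and 0.532-fold under 3x (adjusted p = 3.44e-07) relative to WT IL-2, and to 0.762-fold under 3x relative to H16R (adjusted p = 0.0216). Il4ra and Il21r were higher with block under H16R (1.38-fold and 1.36-fold) and 3x (1.29-fold and 1.36-fold) than under WT IL-2, and there the pair of muteins was not told apart (Il21r 0.00, 95% interval -0.11 to 0.117, and Il4ra -0.10, -0.232 to 0.026, which passed without block H16R replicate 3 at -0.16, adjusted p = 0.0855). With isotype, Il21r was lower under 3x than under either other molecule (0.887-fold against each). The first of these was lost without isotype WT IL-2 replicate 2 (log2 -0.13, adjusted p = 0.127) and the second without isotype H16R replicate 1 or 3 or 3x replicate 1, 3 or 4 (-0.14 to -0.17, adjusted p = 0.107 to 0.16). Il6ra was higher under both muteins than under WT IL-2 with isotype (1.23-fold and 1.34-fold) and passed in neither with block (-0.10, -0.231 to 0.031, and -0.06, -0.193 to 0.068), though H16R passed as lower without block H16R replicate 2 (-0.16, adjusted p = 0.0454) or the libraries that stand apart (-0.13, adjusted p = 0.0993). Il18r1 was lower under 3x than WT IL-2 with isotype (0.749-fold, adjusted p = 0.00794) and under H16R with block (0.809-fold, adjusted p = 0.0303), the latter lost without block WT IL-2 replicate 4 or H16R replicate 4 (adjusted p = 0.104 and 0.116). Without the libraries that stand apart, the call of Il6st for H16R against WT IL-2 with block was lost (log2 0.15, adjusted p = 0.0714, against 0.09, adjusted p = 0.199) and 3x against H16R passed with isotype (-0.15, adjusted p = 0.0808). The calls of Il4ra and Il10ra for 3x against H16R with isotype (0.887-fold and 0.877-fold) were lost in 16 and 10 of the fits that left out 1 library. That of Il4ra for H16R against WT IL-2 was lost without isotype WT IL-2 replicate 3b (adjusted p = 0.106) or H16R replicate 3 (0.256).

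Block against isotype at a fixed treatment called 1 of the 10 members under PBS (14.1% of all genes), 4 under WT IL-2 (33.6%), 2 under H16R (30.7%) and 5 under 3x (54.1%). Under WT IL-2, block lowered Il4ra (0.794-fold), Il21r (0.782-fold), Il10ra (0.839-fold) and Il1r2 (0.521-fold), and the last was lost without the isotype replicate at 48.0 CPM (log2 -0.48, adjusted p = 0.268). Several marker sums did not overlap in this comparison. Among them were those for Treg (2430 to 3390 CPM with block, 3840 to 4360 with isotype) and effector Treg (610 to 771 against 1120 to 1220). Others were those for myeloid (21.0 to 558 against 8.88 to 19.1), dendritic (20.3 to 81.6 against 7.25 to 10.3) and NK cells (28.0 to 37.9 against 11.0 to 15.5). Their part was not tested. Under H16R it lowered Il6ra (0.819-fold) and Il7r (0.814-fold), the latter lost without isotype H16R replicate 1 or 4 or block H16R replicate 3 or 4 (adjusted p = 0.106 to 0.201). Under 3x it lowered Il7r, Il6ra (0.772-fold) and Il27ra (0.932-fold) and raised Il18r1 (1.33-fold) and Il21r (1.2-fold), and the Il27ra call was lost in 10 fits without 1 library (adjusted p = 0.10 to 0.254). Myeloid sums were higher with block without overlap under H16R (24.9 to 58.9 CPM against 9.36 to 12.5) and 3x (39.6 to 57.8 against 13.6 to 19.7). So were dendritic cell sums (17.5 to 27.7 against 3.55 to 5.2 CPM, and 18.4 to 25.8 against 4.99 to 7.08). B cell sums did not overlap either (40.8 to 73.2 against 25.2 to 33.0 CPM, and 47.5 to 107 against 23.3 to 30.5). Their part was not tested. Without the libraries that stand apart, Il7r also differed under WT IL-2 (log2 0.32, adjusted p = 0.0108) and its WT IL-2 interaction passed (0.45, adjusted p = 0.0192), each also without isotype PBS replicate 1 alone (adjusted p = 0.0833 and 0.093). The H16R interaction of Il7r passed without isotype PBS replicate 4 (-0.46, adjusted p = 0.0399). The interaction of antibody and molecule called 4 members for WT IL-2 (19.7% of all genes), 1 for H16R (19.1%) and 5 for 3x (39.0%).

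Responses of Tregs and Tcons of the same mice were compared with both antibodies pooled. Members with a different response numbered 4 for WT IL-2 (21.5% of all genes), 5 for H16R (46.1%) and 8 for 3x (52.1%), and 2 differed in the effect of block (21.8%). Besides Il10ra and Il4ra, Il6st (by 0.45, 0.65 and 0.18 on the log2 scale for WT IL-2, H16R and 3x) and Il6ra (by 0.31 and 0.43 for WT IL-2 and H16R) had the higher response in Tregs. Higher does not mean raised here, since both genes fell in Tcons under WT IL-2 and H16R, and with block in Tregs too. The pooled fit also averages the Il6ra responses of Tregs to H16R, which had opposite directions with the 2 antibodies. The Il6ra difference for WT IL-2 was lost without the mouse of isotype PBS replicate 1 or isotype WT IL-2 replicate 1 (adjusted p = 0.121 and 0.136). For 3x, the response of Tregs was lower for Il1r2 (-1.20, adjusted p = 0.00577), Il15ra (-0.37, adjusted p = 0.0216), Il27ra (-0.20, adjusted p = 0.00946) and Il21r (-0.12, adjusted p = 0.0884), and higher for Il18r1 (0.47, adjusted p = 0.0163). Il7r had the higher response in Tregs for WT IL-2 (0.48, adjusted p = 0.0157) and H16R (0.23, adjusted p = 0.0966). The calls of Il21r and Il6st for 3x and of Il7r for H16R were lost without the libraries that stand apart, and that of Il7r for H16R was lost in 17 of its 23 alternatives in all (adjusted p up to 0.35). The effect of block was higher in Tregs for Il18r1 (0.43, adjusted p = 0.0141) and Il6st (0.16, adjusted p = 0.0419, lost without those libraries).

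Tcons alone, with 2 libraries a group and antibodies pooled, called 3 members for WT IL-2 (27.2% of all genes), 3 for H16R (31.1%), 2 for 3x (9.88%) and 1 for block (28.9%). The level of Il18r1 in Tcons under WT IL-2 with isotype was 121 CPM in one library and 238 CPM in the other, the latter being the library with the high Treg marker sum. The Treg library of that mouse had 185 CPM, the highest of its group. The Tcon difference for that gene did not pass (log2 0.38, 95% interval 0.038 to 0.73, adjusted p = 0.111). It passed in 4 of the 23 alternatives, which were those without isotype WT IL-2 replicate 1 (0.51, adjusted p = 0.0554) or block WT IL-2 replicate 2 (0.49, adjusted p = 0.0652), DESeq2 (adjusted p = 0.0839) and a mean for each Tcon group (adjusted p = 0.0922). Without the library with the high Treg marker sum, Il21r passed as lower under WT IL-2 (-0.27, adjusted p = 0.0166) and higher under 3x (0.19, adjusted p = 0.0922), Il18r1 as higher under H16R (0.22, adjusted p = 0.053) and Il1r2 as lower under 3x (-1.22, adjusted p = 0.0845). The part of the myeloid markers that were high in both block WT IL-2 Tcon libraries, and of the B cell markers that were high in both isotype PBS Tcon libraries, was not tested.

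The remaining genes of these pathways were counted from lists, to be read beside the 52.2%, 64.2% and 63.6% of all genes that were called with isotype and the 35.6%, 66.5% and 73.0% with block. Of 7 partner chains, 4, 3 and 3 rose and 1, 2 and 2 fell under WT IL-2, H16R and 3x with isotype, and 4, 4 and 3 rose and 0, 2 and 1 fell with block. The common gamma chain Il2rg rose in all 6 (log2 0.14 to 0.47) and Il13ra1, which pairs with Il4ra, fell in 5, from a mean of 4.32 CPM in isotype PBS Tregs. The isotype falls went with the lower B cell and dendritic cell sums given for Il1r2, whose part was not tested. Under WT IL-2 with block it rose from a mean of 3.58 to 5.75 CPM (0.72), where myeloid markers were also higher (21.0 to 558 CPM against 7.93 to 19.4 under PBS), and the call was lost without the library at 558 CPM and the other libraries that stand apart (0.44, adjusted p = 0.232). Of 11 JAK and STAT genes, 5, 8 and 4 rose and 0, 0 and 2 fell with isotype, and 2, 5 and 4 rose and 2, 2 and 3 fell with block, by at most 0.43. Of 4 SOCS genes, the feedback inhibitors of JAK signalling, 2, 2 and 3 rose and 1, 1 and 1 fell with isotype, and 1, 3 and 3 rose and 2, 1 and 0 fell with block. Socs2 rose in all 6 (0.86 to 1.88), Socs1 fell in 5 (-0.20 to -0.45) and Socs3 rose in 5 and fell under WT IL-2 with block (-0.17). Among 4 IL-1 family adaptors, 2, 2 and 2 rose and 1, 0 and 0 fell with isotype, and 1, 2 and 2 rose and 0, 1 and 2 fell with block. Irak4 rose in all 6 (0.18 to 0.46) and Myd88 in 5. The median log2 fold change of the 9 members in the full fit was 0.00, 0.14 and 0.03 with isotype and -0.15, -0.06 and -0.20 with block, beside -0.01, -0.01 and -0.01 and 0.02, -0.02 and -0.04 over all genes tested.

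Of 11 further cytokine receptors, 7, 7 and 6 rose and 2, 2 and 2 fell with isotype, and 5, 8 and 7 rose and 1, 2 and 3 fell with block. Il1rl1, the IL-33 receptor and the gene just before Il18r1, rose in all 6 by 1.56 to 2.64, whereas Il18r1 rose by at most 0.60. Il9r (0.92 to 1.36) and Ifngr1 (0.23 to 0.74) also rose in all 6. Il12rb2, a chain of the IL-12 receptor, rose with block (1.18, 2.20 and 1.85) and with isotype fell under 3x (-0.47) and passed under neither other molecule. Of the 9 ligands tested, 4, 4 and 3 rose and 1, 3 and 3 fell with isotype, and 7, 5 and 5 rose and 0, 1 and 1 fell with block. Il10, Il4 and Il13 rose in all 6 comparisons, Il4 from a mean of 1.43 CPM in isotype PBS Tregs to 15.9 CPM under 3x with block, and Il21 rose in 4, to 30.2 CPM in that same group against 3.98 CPM under PBS with block.

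The genes most like each receptor were ranked by Pearson's r of log2 CPM over the 32 Treg libraries (31 for Il6st), which share their treatment groups, so r describes these groups and carries no p. Il10ra was followed by Limd1 (r = 0.974), Mgarp (0.974) and its chromosomal neighbour Tmprss13 (0.97), and Il1r2 by Ier5l (0.963), Muc16 (0.937) and Egr2 (0.936). Il4ra was nearest to Socs3 (0.875), Il6ra to Grap2 (0.885), Il7r to Dpy19l3 (0.87), Il15ra to Bcl6 (0.882), Il21r to Akt2 (0.862) and Il27ra to Zgpat (0.792). Il18r1 was nearest to Ric1 (0.885) and then to Il18rap (0.874), its partner chain and neighbour. Il6st was nearest to Il27ra (0.787), the other chain of the IL-27 receptor. Between members, the highest values were 0.80 for the neighbours Il4ra and Il21r, 0.787 for Il6st and Il27ra and 0.756 for Il15ra and Il1r2, and the lowest was -0.761 for Il10ra and Il1r2, over 31 libraries.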

How the data were processed

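RNA of 32 Treg and 16 Tcon libraries was sequenced by the authors from polyA-selected, stranded libraries. The authors deposited expected counts, made with the OSA aligner in Omicsoft Array Suite, mouse genome B38 (methods name gene model GENCODE v19) and Omicsoft's RSEM, with no normalization; 72.8% of nonzero values are whole to 1e-6. The deposited FPKM values are these estimates divided by transcript length and library reads. Tables of the authors' own DESeq2 1.30.1 comparisons (log2 fold changes, p-values) were not used. All 48 columns matched a sample label, and 0 matched none. The isotype WT IL-2 Treg group has 2 libraries with the same mouse label, which were counted as replicates 3a and 3b. Their counts differed beyond sampling noise, so they are not copies of 1 library, and the methods give 4 mice a group, each processed as its own sample.

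Expected counts were rounded. CPM is the count scaled to the sum of the library. Protein-coding genes (GENCODE vM21, GRCm38) above 0.5 CPM in at least 4 libraries and with no empty cell were tested with TMM factors and edgeR 4.0.16's quasi-likelihood test in R 4.3.3, with Benjamini-Hochberg adjustment and a threshold of 0.1 on the adjusted p. This gave 12392 genes for Tregs (8 group means), 12844 for Tregs and Tcons paired by mouse, and 12526 for Tcons (molecule and antibody as additive terms). The paired fit of baseline and responses had cell type by molecule and cell type by antibody as additive terms. Pairs from the same mouse had correlated deviations (r 0.099 to 0.513 over 16 pairs). Libraries of different Treg groups with the same replicate number had a median r of 0.0249 over 112 pairs (-0.481 to 0.657, with 27 pairs over 0.1). The median was -0.00919 for different numbers, so the Treg fit has no block. Scripts were tested on simulated data. Each mouse is 1 replicate. At the lowest depth, 18.28 M, 1 CPM is about 18.28 counts, and intervals are 95% intervals of the fit. Genes were named as the 10 members, the lists' genes and the 3 most alike genes per member. Alternatives were library totals, no filter, all gene types, limma 3.58.1 on log2(FPKM + 1), DESeq2 1.42.0, fewer groups per fit, the replicate block and leaving out each library. A further one, without 3 libraries that stand apart (for Il6st also without the library whose value is empty), was chosen after seeing the data. Members and lists were chosen with earlier results of these data known.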

Additional observations from a re-analysis of the deposited data

Results flagged for a closer look

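In 6 of 79 groups of 4 Treg libraries, 1 value lay far from the other 3, where chance gives about 1 in 20. These were Il4ra in isotype H16R replicate 3 (453 CPM), Il6ra in MHC II block H16R replicate 2 (221 CPM), Il7r in MHC II block WT IL-2 replicate 1 (201 CPM), H16R replicate 4 (158 CPM) and 3x replicate 2 (165 CPM), and Il10ra in isotype WT IL-2 replicate 2 (150 CPM). Il7r accounts for 3 of the 6, and its WT IL-2 value is that of the library with high B cell and myeloid markers.

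The response to a molecule differed between MHC II block and isotype Tregs (interaction in edgeR, log2, block minus isotype) for Il4ra (-0.24), Il6st (-0.34), Il10ra (-0.27) and Il21r (-0.32) under WT IL-2, for Il6ra (-0.46) under H16R, and for Il6ra (-0.54), Il6st (-0.28), Il7r (-0.84), Il18r1 (0.41) and Il21r (0.30) under 3x. Those of Il6st, and of Il4ra under WT IL-2, were lost without the libraries that stand apart.

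Tregs and Tcons of the same mice differed in their response (Tregs minus Tcons, log2) to WT IL-2 in Il6ra (0.31), Il6st (0.45), Il7r (0.48) and Il10ra (0.38). For H16R they differed in Il6ra (0.43), Il6st (0.65), Il7r (0.23), Il10ra (1.0) and Il21r (0.20). For 3x they differed in Il4ra (-0.54), Il6st (0.18), Il10ra (1.01), Il15ra (-0.37), Il18r1 (0.47), Il21r (-0.12), Il27ra (-0.20) and Il1r2 (-1.20).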

How the results depend on the processing

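No call reversed its direction in any alternative. With 9 members in the Treg fits, the number of calls was 13 for the molecules against PBS with isotype (11 to 15 when single libraries were left out), 23 with block (22 to 23), 11 for block against isotype (10 to 13), 28 for pairs of molecules (25 to 30) and 8 for interactions (6 to 9). With 10 members, it was 8 for Tregs against Tcons (7 to 9), 17 for responses of Tregs against Tcons (13 to 17), 8 for Tcons against PBS (7 to 12) and 1 for block in Tcons (0 to 2). The last was 0 without either block 3x Tcon library and 2 without Tcon isotype WT IL-2 replicate 1. With a replicate block the Treg counts were 13, 23, 12, 27 and 8. Without the pairing by mouse (no replicate block), 10 of the 17 responses remained past the threshold. A mean for each of the 8 Tcon groups gave 12 calls in place of 8.

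For the Treg tests of Il6st only the alternative without the libraries that stand apart was run. Differences near 1.1-fold, such as those of Il27ra, depend on the scaling, since library totals in place of TMM factors shift the median gene by up to 0.085 on the log2 scale. Groups of 2 Tcon libraries limit what the Tcon tests can show, and Il1r2 and Il15ra rest on the lowest levels.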
